A study of Homo sapiens with 4 samples.

Results

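The TNF ligand and receptor superfamily was followed through A549 xenografts that were left untreated, exercised, irradiated, or exercised and irradiated. A549 is a human non-small cell lung cancer (NSCLC) line. A gene was a member if its symbol began with TNFRSF or TNFSF and a number, with FAS, FASLG, EDA2R, CD40, LTBR and NGFR added, and 41 of the 38137 genes in the count table met this rule. Of these, 38 were receptor or ligand genes, and 3 were other loci with such a symbol, namely the antisense RNA TNFRSF14-AS1, the divergent transcript TNFRSF10A-DT and the readthrough TNFSF12-TNFSF13. In 30 members, 27 of them receptor or ligand genes, the 4 libraries averaged 20 reads or more, the minimum for a comparison. At that boundary, TNFSF13B lay just inside with a mean count of 23.25 and TNFRSF13C just outside with 13.0.

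The cells were injected into the flank of male BALB/c athymic nude mice, bought at 6 weeks of age, a strain without mature T cells, and treatment began once a tumor could be felt. The control group received neither treatment. Exercised mice ran on a treadmill for 30 min at 8.0 m/min, radiation was X-rays confined to the tumor-bearing flank at 2 Gy, and both were given 3 times a week for 2 weeks, with exercise before radiation on the same day in the combination group. Each group held 5 mice and gave 1 library, so no comparison has a replicate and no test was run, and whether a library pooled several tumors is not given in the sources used here. Reads assigned to genes totalled 33432637 to 35408705 a library, and 3 reads, the limit that a count of 0 allows, corresponded to 0.084 to 0.0916 CPM, the read count scaled to a common library size with TMM factors. Values set in a row below follow the order control, exercise, radiation and combination.

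Proteins of this superfamily carry signals between neighbouring cells. The ligands assemble as trimers on the cell surface or in soluble form and draw their receptors together. Death-domain receptors recruit the adaptor FADD or TRADD and can activate caspase-8, the receptors without a death domain bind TRAF proteins and feed NF-kappaB, and decoy receptors hold a ligand without passing on a death signal. FAS, EDA2R and the TRAIL receptors are known targets of p53, a transcription factor that responds to DNA damage and is intact in A549 cells. The ligands are best known from lymphocytes and myeloid cells, and several are also made by epithelial tumor cells.

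Tumor identity was checked on markers. The 8 epithelial genes summed to 11500 to 12600 CPM, whereas alveolar type II genes summed to 144 to 159 CPM, and of these the surfactant genes SFTPA1, SFTPA2, SFTPB and SFTPC had 0 to 5 reads. ABCA3, at 4455 to 5354 reads, made up most of the alveolar sum, and SFTPD had 112 to 184 reads. Summed levels were 4.05 to 5.35 CPM for T and NK cell genes (PRF1 at 0 in all libraries). For B cell genes they were 3.0 to 3.74 CPM (MS4A1 and CD79B at 0). Other genes of these lists were covered, with 62 to 105 reads for CD8A, 24 to 45 for CD4, 35 to 45 for KLRD1 and 65 to 93 for MZB1. CD79A had 14, 22, 34 and 35 reads and NKG7 had 2, 6, 8 and 16. Endothelial genes summed to 21.8, 17.2, 12.3 and 8.24 CPM. PECAM1 made up most of each sum, with 655, 484, 334 and 181 reads. It was the 1 gene of the 8 that was lower in both irradiated libraries, and 0 were higher in both. CDH5, for example, had 21, 15, 16 and 16 reads and TEK 13, 27, 19 and 16. Only genes of a human annotation were counted, and how host reads were handled is not given. Skeletal muscle genes summed to 41.1 CPM in control and 39.5 CPM with exercise, against 83.5 CPM with radiation and 85.6 CPM in the combination. Of the 14, 10 were higher in both irradiated libraries and 1 was lower. TTN, the largest part of each sum, had 20.7, 20.9, 26.1 and 20.7 CPM. Other genes were nearly absent from control, with 0, 11, 278 and 258 reads for MYH1, 0, 14, 183 and 284 for MYH2 and 1, 25, 485 and 417 for MYH4. Macrophage and neutrophil genes summed to 373, 363, 430 and 495 CPM in the same order (FCGR3A and S100A8 at 0), and fibroblast genes to 333, 340, 218 and 189 CPM. Of the 10 fibroblast genes, 8 were lower in both irradiated libraries and 0 were higher. Of the 12 macrophage and neutrophil genes, 5 were higher in both irradiated libraries and 3 were lower. CD68 had 44.3, 44.6, 101 and 110 CPM and LYZ 41.8, 40.9, 81.8 and 124 CPM. CSF1R, the largest part of each sum, had 278, 267, 239 and 251 CPM. The part of these cell types in the results below was not tested, and in bulk RNA fewer cells of a type and less RNA per cell cannot be told apart.

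The regions upstream of 4 members are shown because EDA2R, FAS and TNFSF9 were at least 2-fold higher with radiation in both exercise settings, and because the windows of FAS and TNFSF15 held a p53 decamer, the 10-base unit of the p53 response element. Each line gives the 250 bases before a RefSeq start on GRCh38.p14, read 5′ to 3′ on the strand of the gene. Capitals mark the GC box, spelled GGGCGG, together with the TATA box, spelled TATAAA, and the p53 decamer. Both strands were searched, and none of the marked motifs overlapped another.
EDA2R: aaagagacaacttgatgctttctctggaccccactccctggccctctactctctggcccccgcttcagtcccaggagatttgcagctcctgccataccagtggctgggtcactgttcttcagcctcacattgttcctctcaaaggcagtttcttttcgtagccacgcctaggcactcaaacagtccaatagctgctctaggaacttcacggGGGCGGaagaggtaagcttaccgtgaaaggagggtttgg
FAS: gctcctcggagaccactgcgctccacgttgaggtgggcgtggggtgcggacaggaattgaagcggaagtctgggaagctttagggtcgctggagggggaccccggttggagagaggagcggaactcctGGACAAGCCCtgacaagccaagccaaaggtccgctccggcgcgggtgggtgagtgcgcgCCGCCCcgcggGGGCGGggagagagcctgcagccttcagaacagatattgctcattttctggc
TNFSF9: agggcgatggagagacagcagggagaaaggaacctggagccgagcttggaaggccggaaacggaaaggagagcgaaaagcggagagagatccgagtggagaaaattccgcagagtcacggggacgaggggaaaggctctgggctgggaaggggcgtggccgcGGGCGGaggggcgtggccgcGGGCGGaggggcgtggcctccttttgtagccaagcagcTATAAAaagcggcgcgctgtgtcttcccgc
TNFSF15: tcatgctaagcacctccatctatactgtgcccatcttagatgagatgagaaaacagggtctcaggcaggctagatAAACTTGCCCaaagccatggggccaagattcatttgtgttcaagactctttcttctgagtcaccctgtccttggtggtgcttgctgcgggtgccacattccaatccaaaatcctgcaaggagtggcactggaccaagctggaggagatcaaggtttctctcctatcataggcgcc

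The EDA2R window was chrX:66639270-66639519 on the minus strand and held a GC box 39 to 34 bases before the start. The FAS window was chr10:88991181-88991430 on the plus strand, upstream of the second listed FAS start. It lay wholly inside the FAS gene (GENCODE), in an exon of a non-coding FAS transcript and in no exon of a protein-coding one, with the p53 decamer 122 to 113 bases before that start and a GC box on each strand. The TNFSF9 window, chr19:6530776-6531025 on the plus strand, held 2 GC boxes and a TATA box 30 to 25 bases before the start. The TNFSF15 window, chr9:114792531-114792780 on the minus strand, lay in an intron of TNFSF15 and held the p53 decamer 175 to 166 bases before the start. Among 34943 RefSeq windows of the same 250 bases, 42.5% held the GC box, 10.8% the TATA box and 5.58% the p53 decamer. For the 26 members that matched a window, the first listed window held these in 17, 3 and 2 members (65.4%, 11.5% and 7.69%), the p53 decamer being found for TNFSF15 and LTBR. Over all 34 listed windows of these members it was in 4 (11.8%), namely those of TNFSF15 and LTBR and the second listed windows of FAS and TNFRSF19. Sequences are printed only for members at 2-fold, which LTBR and TNFRSF19 were not, and TNFRSF19 was lower in the irradiated libraries. A match describes the letters and not a bound site.

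In the tumors, TNFRSF10B, TNFRSF12A, TNFRSF1A and LTBR were the most abundant receptors and TNFSF15 the most abundant ligand. Per kilobase of merged exon, the mean level over the 4 libraries was 44.8 CPM for TNFRSF10B (DR5, a receptor for TRAIL that carries a death domain), 41.6 CPM for TNFRSF12A (Fn14, the receptor for TWEAK), 37.4 CPM for TNFRSF1A (the main TNF receptor of epithelial cells), 23.9 CPM for LTBR (the lymphotoxin beta receptor) and 21.5 CPM for TNFSF15 (TL1A). The order rests on the length used, since the deposited FPKM, which divide by the whole gene span, put TNFRSF12A first.

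**Figure D1:**
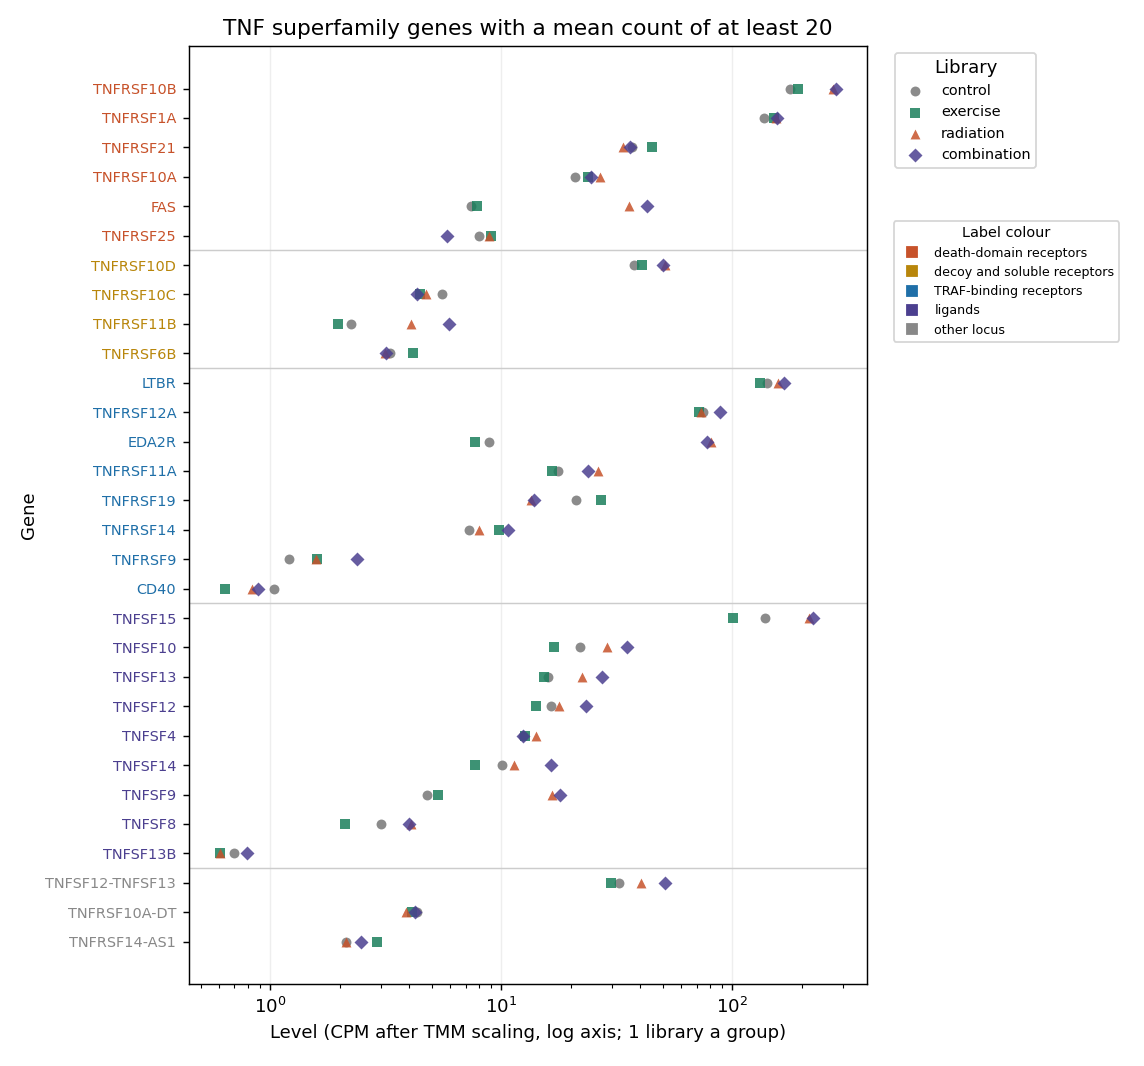
Level of each of the 30 members with a mean count of at least 20 in the 4 libraries, in TMM-scaled CPM on a log axis that is not corrected for gene length, with 1 symbol a library and genes grouped by role (label colour). EDA2R, FAS and TNFSF9 show both irradiated libraries well to the right of both unirradiated libraries, and most other receptors show all 4 symbols close together.

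Below the minimum were the other 11 members. Of the 12 ligand genes, 3 (FASLG, TNFSF11 and TNFSF18) were in that group, and the rest of it were receptors. TNFRSF13C, the BAFF receptor of B cells, was covered by 13, 18, 14 and 7 reads. TNFRSF1B, the TNF receptor of immune and endothelial cells, had 7 to 10 reads, and NGFR had 1 or 6. TNFSF11 (RANKL), TNFSF18, TNFRSF4 and TNFRSF8 had 0 to 4 reads, TNFRSF17 and FASLG 0 to 2, TNFRSF13B at most 1, and TNFRSF18 none in any library. FASLG, the ligand that FAS answers to, had 1, 0, 2 and 1 reads, so any difference in it was not detectable at this depth.

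Radiation against control addressed what irradiation alone changed, and combination against exercise asked the same in exercised mice. The comparisons share no library. In radiation against control, 3 of the 30 members were at least 2-fold higher (FAS, TNFSF9 and EDA2R), where 1.89% of the 19393 genes compared were higher, and 0 were 2-fold lower, where 0.897% of all genes were. In combination against exercise, 7 members were at least 2-fold higher, where 2.92% of all genes were, and 0 were lower, where 3.06% of all genes were. The 3 genes of the first comparison were among the 7, and the 4 others were TNFRSF11B, TNFSF15, TNFSF10 and TNFSF14. Higher in both comparisons were 3 members, against 1.02% of all genes, and lower in both were 0, against 0.438%. In combination against control, which shares the control library with the first comparison, 4 members were at least 2-fold higher (FAS, TNFSF9, EDA2R and TNFRSF11B; 2.27% of all genes) and 0 were lower (1.75%).

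EDA2R, a TRAF-binding receptor for the A2 form of ectodysplasin, showed the largest fold of any member in all 3 comparisons of an irradiated with an unirradiated library. The gene lies at chrX:66595637-66639269 on the minus strand of GRCh38.p14. It was covered by 316, 265, 2810 and 2544 reads, or 8.85, 7.67, 80.8 and 77.7 CPM. Both irradiated libraries stood far above both unirradiated libraries. The ratio was 9.12-fold for radiation against control (95% interval 8.13 to 10.3) and 10.1-fold for combination against exercise (8.92 to 11.5). These intervals are exact Clopper-Pearson intervals and, like every interval given here, cover counting error only. Between the irradiated libraries the ratio was 0.961 (0.911 to 1.01), within counting error. Its ligand gene EDA had 828, 869, 758 and 773 reads, with ratios of 0.939 to 1.08 over the 5 comparisons.

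FAS, the death-domain receptor for FAS ligand, lies at chr10:88964050-89017059. It had 265, 271, 1241 and 1400 reads, or 7.42, 7.84, 35.7 and 42.7 CPM. The groups did not overlap. Radiation against control gave 4.8-fold (4.21 to 5.51) and combination against exercise 5.44-fold (4.78 to 6.23). The combination was also above radiation alone, at 1.2-fold (1.11 to 1.29), outside counting error but short of 2-fold. The annotated span of FAS overlaps ACTA2 on the other strand by 27288 bases, and the strand setting of the counting is not given. ACTA2, smooth muscle actin, had 1282, 1015, 1477 and 1540 reads, and its part in the FAS counts was not tested.

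TNFSF9, at chr19:6531026-6535924, encodes the ligand of the T-cell costimulatory receptor CD137. It had 171, 183, 577 and 588 reads, or 4.79, 5.3, 16.6 and 18 CPM. The irradiated libraries were again well above the others and close to each other. The ratio was 3.46-fold in radiation against control (2.92 to 4.13) and 3.38-fold in combination against exercise (2.87 to 4.02). The gene of its receptor, TNFRSF9, had 43, 55, 55 and 78 reads and was highest in the combination, at 1.97-fold over control (1.35 to 2.94), which missed the 2-fold threshold.

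**Figure D2:**
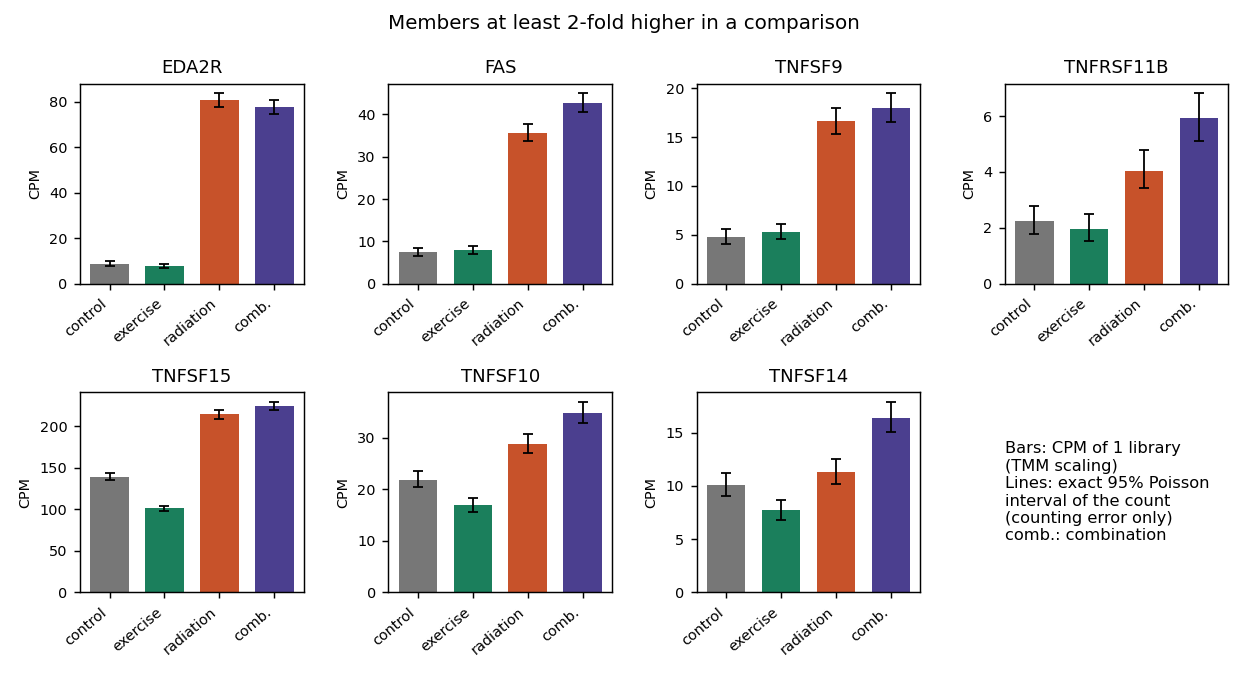
TMM-scaled CPM of the 7 members at least 2-fold higher in a comparison, with 1 bar a library and lines for the exact 95% Poisson interval of the count, on axes that start at 0. EDA2R stands at 8.85 CPM in control and 80.8 CPM with radiation, whereas TNFSF15, TNFSF10 and TNFSF14 are lowest with exercise alone.

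TNFRSF11B, TNFSF15, TNFSF10 and TNFSF14 passed 2-fold only against the exercise library, apart from TNFRSF11B, which also passed it in the combination against control. TNFRSF11B encodes osteoprotegerin, a soluble decoy for RANKL and TRAIL, at chr8:118923557-118951885. It had 80, 68, 141 and 194 reads, or 2.24, 1.97, 4.05 and 5.92 CPM, with both irradiated libraries above the others and the combination highest. Its ratio was 1.8-fold in radiation against control (1.37 to 2.41), 2.63-fold in combination against control (2.03 to 3.48) and 3.0-fold in combination against exercise (2.27 to 4.03). With the deposited FPKM, to which 0.1 was added, the log2 ratios of TNFRSF11B were 0.74 and 0.84 in the last 2 comparisons, and both calls were lost. The added 0.1 pulls the ratio of a gene with low FPKM toward even.

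TNFSF15 (chr9:114784635-114806039), the ligand of the death-domain receptor TNFRSF25, had 4975, 3477, 7453 and 7338 reads. At 139, 101, 214 and 224 CPM, it was lowest with exercise alone and highest after irradiation. The ratio was 1.54-fold in radiation against control (1.48 to 1.59) and 2.23-fold in combination against exercise (2.14 to 2.32). Between the irradiated libraries it was 1.05-fold (1.01 to 1.08).

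TNFSF10 (chr3:172505508-172523430) encodes TRAIL. It had 781, 584, 1003 and 1143 reads, or 21.9, 16.9, 28.8 and 34.9 CPM. The order was the same as for TNFSF14, with exercise lowest, then control, then radiation, and the combination highest. The ratio was 1.32-fold in radiation against control (1.2 to 1.45) and 2.06-fold in combination against exercise (1.87 to 2.29). TNFSF14 (chr19:6661253-6670588), or LIGHT, a ligand of TNFRSF14 and LTBR, had 360, 267, 393 and 538 reads, or 10.1, 7.73, 11.3 and 16.4 CPM. In radiation against control it was within counting error at 1.12-fold (0.969 to 1.3), and in combination against exercise it was 2.12-fold (1.83 to 2.47).

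**Figure D3:**
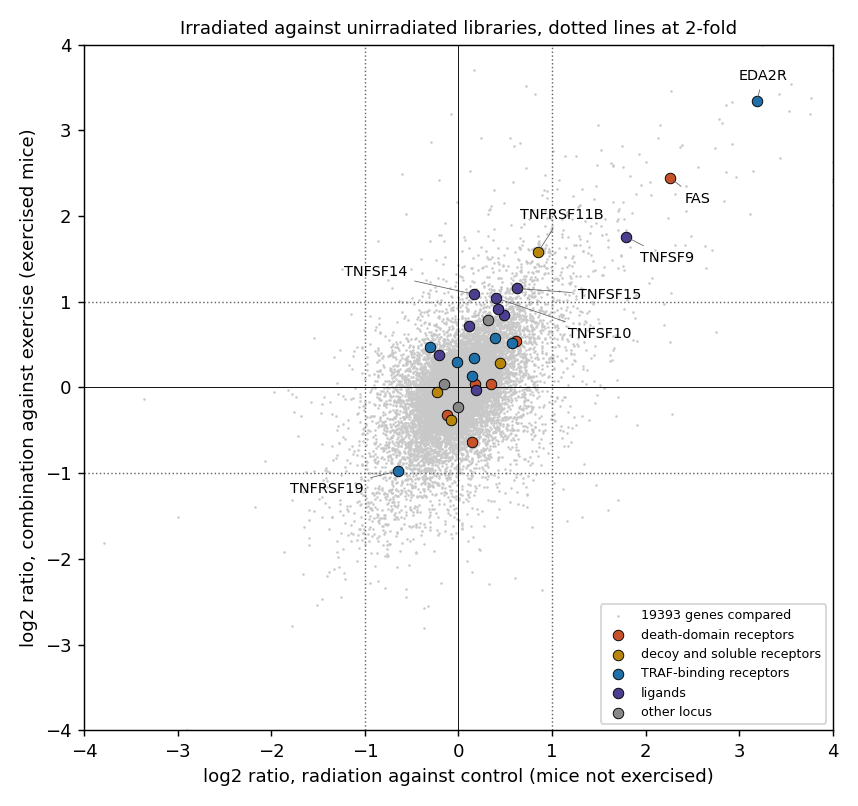
Log2 ratio of radiation against control (horizontal) and of combination against exercise (vertical) for 19393 genes in grey, with the 30 members coloured by role and dotted lines at 2-fold. EDA2R, FAS and TNFSF9 lie beyond 2-fold on both axes, and 16 genes beyond the axis limits, none of them a member, are drawn at the edge.

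Members short of 2-fold were also split by radiation, and the counts that follow include the 7 members at 2-fold in a comparison. Both irradiated libraries lay above both unirradiated libraries for 17 of the 30 members (56.7%), where 26.2% of all genes did so. They lay below for 3 members, TNFRSF21, TNFRSF19 and TNFRSF6B, where 27.6% of all genes did so. The readthrough TNFSF12-TNFSF13, which repeats reads of TNFSF12 and TNFSF13, was among the 17, and without it the counts were 16 of 29 (55.2%) and 3 of 29. With total counts in place of TMM scaling, TNFRSF1A left the first set and TNFRSF10A-DT entered the second, giving 16 and 4. The median log2 ratio of the 30 members was 0.18 in radiation against control, against 0.0 over all genes, and 0.42 in combination against exercise, against -0.02 over all genes.

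Among death-domain receptors, 6 of 7 passed the minimum, and FAS was the 1 member that reached 2-fold. TNFRSF10B had 6341, 6677, 9467 and 9244 reads, with both irradiated libraries above the others. It was 1.53-fold higher in radiation against control (1.48 to 1.58) and 1.46-fold higher in combination against exercise (1.42 to 1.51). The intervals were narrow because the gene was deeply covered. TNFRSF10A, the other TRAIL receptor with a death domain, had 748, 819, 928 and 799 reads, and TNFRSF1A had 4881, 5256, 5373 and 5110. Their ratios reached at most 1.27-fold, in radiation against control for TNFRSF10A. TNFRSF21 (DR6) had 1317, 1549, 1174 and 1176 reads, highest with exercise alone. TNFRSF25 (DR3), the receptor for TNFSF15, had 286, 313, 309 and 190 reads, and the combination alone was low, at 0.654 of the radiation library (0.542 to 0.785).

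Among the TRAIL receptors, reads of the death receptor TNFRSF10B outnumbered those of the decoy TNFRSF10D by more in the irradiated libraries. TNFRSF10D, a membrane decoy with a truncated death domain, had 1343, 1410, 1777 and 1633 reads, and TNFRSF10C, a decoy anchored by a lipid, had 198, 154, 165 and 141. Reads of TNFRSF10B per read of TNFRSF10D numbered 4.72 (4.45 to 5.01), 4.74 (4.47 to 5.02), 5.33 (5.06 to 5.61) and 5.66 (5.37 to 5.97). The irradiated libraries were above the unirradiated libraries, with intervals that did not meet. Per kilobase of exon, the level of the 2 death receptors together over that of the 2 decoys together was 3.05, 3.27, 3.64 and 3.84 in the same order. The 4 genes shared no run of 100 bases with each other in their annotated exons, whereas 28.9% of such runs in TNFRSF10C were shared with other annotated loci. TNFRSF6B, a soluble decoy for FAS ligand, LIGHT and TL1A, had 118, 143, 109 and 104 reads. All of its exon runs of 100 bases were shared with the readthrough RTEL1-TNFRSF6B, so the value is uncertain.

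Of the 15 TRAF-binding receptors, 8 passed the minimum, and EDA2R was the 1 that reached 2-fold. TNFRSF19 (TROY), which carries no death domain, had 755, 935, 470 and 451 reads, so both irradiated libraries were below the others. It was at 0.639 of control with radiation (0.568 to 0.718) and at 0.509 of exercise in the combination (0.454 to 0.57), just short of 2-fold. TNFRSF11A (RANK) had 630, 572, 912 and 778 reads, so both irradiated libraries were above the others. TNFRSF14 (HVEM) had 258, 337, 277 and 350 reads, higher in both exercised libraries. TNFRSF12A had 2472 to 2890 reads with the combination highest, LTBR 4560 to 5510 with exercise lowest, and CD40 22 to 37, too few to separate the libraries. The spans of LTBR and SCNN1A (772 to 1615 reads) overlap by 2200 bases, and those of TNFRSF14 and TNFRSF14-AS1 by 2778, so their reads may be shared.

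The ligands had the highest median of the role groups in combination against exercise. Of the 12 ligand genes, 9 passed the minimum. Their median log2 ratio was 0.92 in combination against exercise and 0.4 in radiation against control, against -0.02 and 0.0 over all genes. In these comparisons, 4 and 1 of the 9 were at least 2-fold higher, where 2.92% and 1.89% of all genes were. TNFSF12 (TWEAK) had 587, 490, 620 and 761 reads, and TNFSF13 (APRIL) had 566, 527, 775 and 898, each lowest with exercise and highest in the combination. The readthrough TNFSF12-TNFSF13 had 1157, 1025, 1402 and 1670 reads, which exceeded the sum of both genes by 4 to 11 reads, so it repeats their reads and adds no separate measurement. TNFSF8 (CD30 ligand) had 108, 73, 141 and 131 reads. TNFSF4 (OX40 ligand) had 405 to 489 reads with no split by treatment, and its span overlaps LOC100506023, which had 377 to 446. TNFSF13B (BAFF) had 21 to 26 reads. TNFRSF14-AS1 had 74 to 100 reads and TNFRSF10A-DT 135 to 154, both without a split by radiation.

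Exercise against control asked what exercise changed without radiation, and combination against radiation what it changed beside radiation. No member was at 2-fold in exercise against control, in which 0.83% of all genes were higher and 0.696% lower. None was at 2-fold in combination against radiation either, in which 0.418% of all genes were higher and 0.861% lower. In both at once, 0 members were at 2-fold, where 0.0206% of all genes were higher and 0.0206% lower.

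Below 2-fold, several ligands were lower with exercise alone and higher with exercise beside radiation. TNFSF14 was at 0.767 of control with exercise (0.652 to 0.9) and at 1.45-fold of radiation in the combination (1.27 to 1.66). TNFSF10 was at 0.773 (0.693 to 0.861) and 1.21-fold (1.11 to 1.32), and TNFSF12 at 0.863 (0.764 to 0.974) and 1.3-fold (1.17 to 1.45). TNFSF15 was at 0.722 (0.691 to 0.754) and 1.05-fold (1.01 to 1.08). Of the 9 ligands, 6 (66.7%) were below even in the first comparison and above it in the second, as were 12 of the 30 members (40%) and 24.7% of all genes. Without the readthrough, it was 11 of 29 members (37.9%). The counts of 6 and 12 were the same under each scaling tried, but they go by sign alone. Of the 6 ligands, TNFSF13 at 0.962 (0.853 to 1.09) and TNFSF13B at 0.871 (0.462 to 1.62) were within counting error in the first comparison. TNFSF13B was so in the second as well, at 1.31-fold (0.711 to 2.46). The difference between the exercise effects, with minus without radiation, was 0.92 on the log2 scale for TNFSF14 (approximate 95% interval 0.63 to 1.22), 0.65 for TNFSF10 (0.45 to 0.84), 0.59 for TNFSF12 (0.36 to 0.83) and 0.53 for TNFSF15 (0.46 to 0.61). It was 0.73 for TNFRSF11B (0.17 to 1.29). Of the 30 members, 9, the readthrough among them, had an interval above 0, 7 an interval below 0 and 14 an interval that included 0. The 7 were the receptors TNFRSF25, at -0.79 (-1.14 to -0.44), TNFRSF19, TNFRSF10A, TNFRSF21, TNFRSF10D, TNFRSF1A and TNFRSF10B, the last 6 between -0.33 and -0.07. For EDA2R, FAS and TNFSF9 the differences were 0.15 (-0.1 to 0.4), 0.18 (-0.09 to 0.45) and -0.03 (-0.37 to 0.31), and each of these intervals includes 0. The share of all genes with an interval above or below 0 was not computed, so the counts of 9 and 7 have no background. Without replicate libraries, none of these differences could be set against the spread between tumors.

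**Figure D4:**
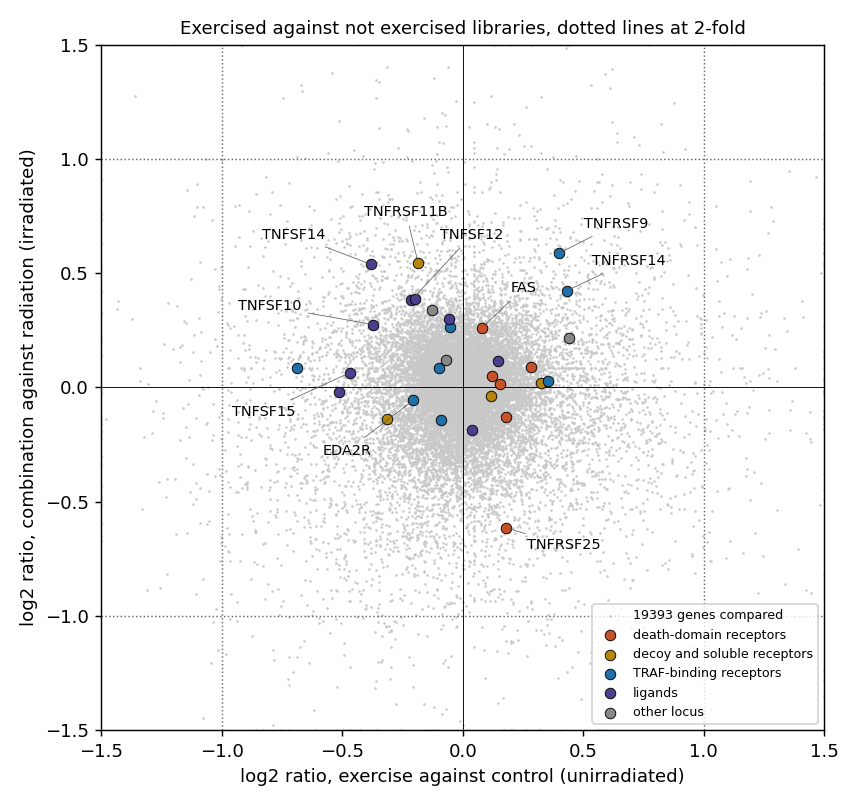
Log2 ratio of exercise against control (horizontal) and of combination against radiation (vertical) for 19393 genes in grey, with the 30 members coloured by role and dotted lines at 2-fold. No member lies beyond 2-fold on either axis, 6 of the 9 ligands lie in the upper left, above 0 on the vertical and below 0 on the horizontal axis, and 118 genes beyond the axis limits are drawn at the edge.

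Other genes of the pathway were taken from fixed lists. Of 9 further superfamily genes outside the naming rule, 6 passed the minimum. Their median log2 ratio was -0.27 in radiation against control and -0.3 in combination against exercise, against 0.18 and 0.42 for the members. Below even were 4 and 5 of the 6, where 49.9% and 52.2% of all genes were. EDAR had 950, 776, 553 and 569 reads, at 0.598 (0.537 to 0.664) and 0.774 (0.693 to 0.863) in these comparisons. CD27 had 127, 116, 90 and 91 reads. CD70, the ligand of CD27, had 72, 87, 263 and 175 reads and was 3.73-fold higher in radiation against control (2.88 to 4.94) and 2.12-fold higher in combination against exercise (1.63 to 2.78). LTB, lymphotoxin beta, ran the opposite way with 122, 177, 49 and 65 reads, at 0.415 (0.29 to 0.579) and 0.389 (0.287 to 0.518). TNF itself had 17, 43, 6 and 8 reads and LTA 29, 21, 16 and 10, both below the minimum. The irradiated libraries thus held fewer reads of TNF, LTA and LTB than either unirradiated library.

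Of 16 death-signalling genes, which include FADD, CASP8 and CFLAR, 15 passed the minimum and 0 reached 2-fold in any comparison, with log2 ratios from -0.26 to 0.28 in radiation against control. All 25 TRAF and NF-kappaB signalling genes passed, 0 reached 2-fold, and the log2 ratios ran from -0.35 to 0.44 in radiation against control. They ran from -0.65 to 0.23 in combination against exercise, with 17 of 25 below even (52.2% of all genes), and from -0.7 to 0.3 in combination against control. In the latter, TRAF5 (7272, 6724, 5572 and 4106 reads) was lowest, at 0.616 (0.592 to 0.64), and TRAF4 highest, at 1.23-fold (1.17 to 1.29). Since 0.418% to 3.06% of all genes were at 2-fold in a given direction and comparison, a count of 0 in 15 or 25 genes is near that background. Of 16 NF-kappaB target genes, 15 passed. LTB, which is in both lists, and the chemokine CCL20 were 2-fold lower in radiation against control and in combination against exercise. Of all genes, 0.897% and 3.06% were. CCL20 averaged 22 reads (29, 34, 10 and 15) and passed the minimum only through the unirradiated libraries, so its calls depend on that filter. Its ratios were 0.365 (0.154 to 0.747) and 0.474 (0.236 to 0.878) in these comparisons. The medians of the 15 targets were -0.22 and -0.18 on the log2 scale in these comparisons, with 12 and 10 of the 15 below even, where 49.9% and 52.2% of all genes were. They were 0.28 in exercise against control, with 13 of 15 above even (50.4% of all genes), and 0.24 in combination against radiation, with 14 of 15 above even (50.2% of all genes).

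**Figure D5:**
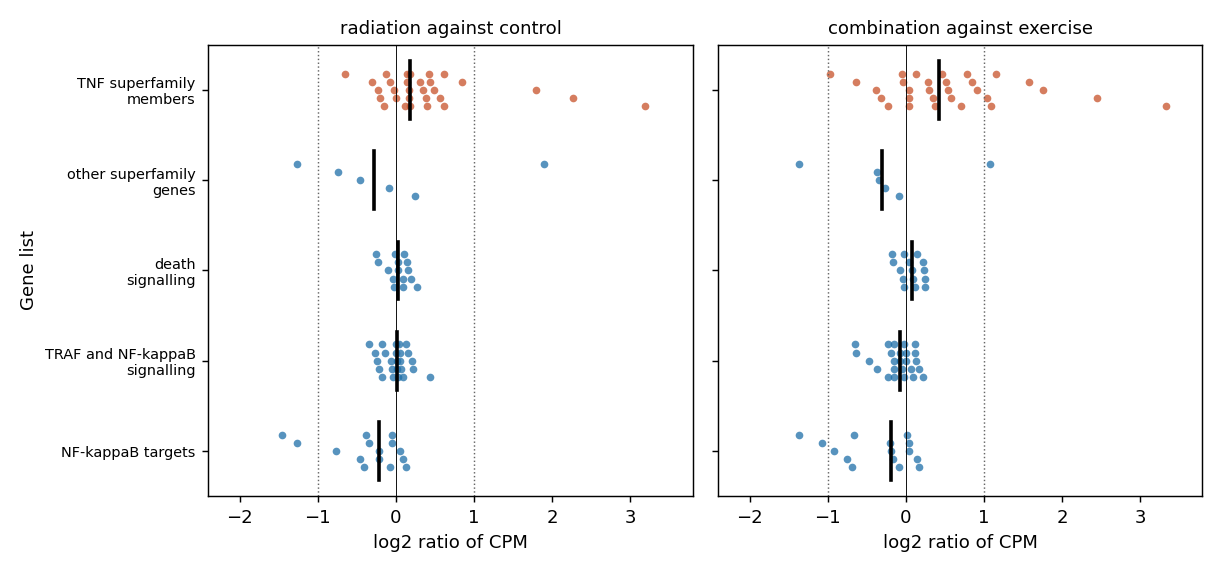
Log2 ratio of each gene of 5 lists in radiation against control (left) and combination against exercise (right), with 1 point a gene, black bars at the list median and dotted lines at 2-fold. Points of the TNF superfamily members reach 3.19 (EDA2R, left), whereas those of death signalling stay between -0.26 and 0.28 on the left.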

How the data were processed

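PolyA-selected, stranded libraries from 4 A549 xenograft groups were read as pairs of 100 nt. Per the submitters' processing notes and the methods of the study, reads were trimmed with cutadapt, aligned to GRCh38 with Bowtie2 2.3.4.1 and counted with featureCounts 1.6.0. How strand was set in counting, how reads of mouse origin were treated and whether tumors were pooled is not given in the sources used here. Raw read counts per gene were deposited by the authors, and these were used for every result. The authors also deposited FPKM values, whose implied length was within 2% of the whole gene span for 84.7% of 6323 genes checked, which lowers genes with long introns. They served as an alternative only.

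CPM were computed from the counts after TMM scaling on genes averaging 20 reads or more (edgeR 4.0.16, R 4.3.3), with a prior of 0.5 counts in the log2 ratios. TMM factors were 0.98 to 1.032. These 19393 genes were compared at 2-fold in 5 comparisons of 1 library against 1, with no test. Exact Clopper-Pearson intervals of folds and Poisson intervals of CPM at 95% cover counting error only. In simulated counts of the combination and control over 19393 genes, 188 of 200 fold intervals held the true fold. These counts were Poisson draws without spread between tumors, so this checks the computation only and not how the intervals hold in these data. Intervals of a difference between effects were approximate normal intervals from the 4 counts.

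Every member was accounted for. Those averaging 20 reads or more were named with counts, those at 2-fold in full, and from each pathway list the genes at 2-fold were named. EDA, EDAR, CD27, TNF, LTA, FADD, CASP8, CFLAR, TRAF4 and TRAF5 were named besides, after their values were seen. The members and lists were chosen with earlier results of these data known. Levels between genes used merged exons of GENCODE, and coordinates and promoter windows came from RefSeq on GRCh38.p14, with windows matched for 26 of 41 members. No window with over 30 bases of annotated UTR is printed, which left out the first listed window of FAS. Tables were handled in python 3.11.15 (pandas 2.3.3, numpy 2.4.6), intervals came from scipy 1.17.1, figures from matplotlib 3.10.9, and DESeq2 1.42.0 gave the median-of-ratios size factors. Alternatives were 3 other scalings, no minimum count and a minimum of 100, a prior of 2 counts, a 1.5-fold threshold and FPKM with 0.1 added.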

Additional observations from a re-analysis of the deposited data

Results flagged for a closer look

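For 6 members, exercise moved the level one way without radiation and the other way beside it, each beyond counting error, and this difference was not tested because each group has 1 library. The share of all genes that did so was not computed. Log2 ratios of exercise against control and of combination against radiation were -0.38 and 0.54 for TNFSF14, -0.37 and 0.28 for TNFSF10, -0.21 and 0.38 for TNFSF12, -0.47 and 0.06 for TNFSF15, and -0.1 and 0.08 for LTBR. For the readthrough TNFSF12-TNFSF13 they were -0.13 and 0.34, and its reads are those of TNFSF12 and TNFSF13 counted again.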

How the results depend on the processing

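No paired analysis was possible because each group has 1 library and the labels give no replicate numbers. Counts of members past the threshold were within 1.5 times of those reported under median-of-ratios, total-count and upper-quartile scaling, a minimum mean count of 100 and a prior of 2 counts. The threshold and the low-count filter moved them. At 1.5-fold, 1 member passed in exercise against control, 7 in radiation against control, 12 in combination against control, 2 in combination against radiation, 13 in combination against exercise, and 6 with radiation in both exercise settings. With no minimum count, which adds members with few reads, the first 5 counts were 5, 8, 9, 6 and 13, and 2 passed with exercise in both radiation settings. Shares of all genes under the alternative settings were not computed, so these counts show only how far the number of members depends on the setting. With FPKM, 4 members passed in combination against exercise, since TNFRSF11B (log2 ratio 0.84), TNFSF10 (0.94) and TNFSF14 (0.94) fell short, and 3 in combination against control, since TNFRSF11B did (0.74). Total counts gave 8 in combination against exercise, with TNFRSF19 lower. The median log2 ratio of the members kept its sign under each alternative, from -0.09 to -0.05 in exercise against control, 0.1 to 0.25 in radiation against control, 0.22 to 0.42 in combination against control, 0.06 to 0.1 in combination against radiation and 0.25 to 0.43 in combination against exercise. Leaving out the readthrough, chosen after seeing the data, gave 19 members without overlap between irradiated and unirradiated libraries, against 20. Of 150 single ratios of members, 27 left their counting interval with FPKM and 9 with total counts, and no called ratio changed sign. Other scalings moved the median of all genes by at most 0.08 on the log2 scale. CD40 and TNFSF13B, with under 40 reads in each library, had intervals too wide to separate the libraries.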
